A study of Mus musculus with 7 samples.

Results

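The unfolded protein response and the integrated stress response were followed through 32 genes, matched by symbol, of the 55341 gene names counted by bulk RNA sequencing of sorted mouse microglia. The genes were grouped by role into 4 stress sensors, 3 transcription factors, 7 targets of the transcription factors ATF4 and CHOP, 11 chaperones and co-chaperones of the endoplasmic reticulum (ER), 3 protein disulfide isomerases and 4 genes of ER-associated degradation. All 7 libraries were of CD11b+CD45low cells from the cortex of 5xFAD mice on a C57BL/6 strain, 14 weeks of age by the labels. These mice express mutant human APP and PS1 from the neuron-specific Thy1 promoter, and all had received embryonic cortical cells of wild-type (WT) mice 4 weeks earlier. The 3 inside-graft libraries came from the dissected WT graft and the 4 outside-graft libraries from small cortical pieces near it, so the controls were 5xFAD brains that also carried a graft. No 5xFAD brain without a graft and no WT brain was analysed here. Whether each library came from its own mouse or from pooled mice was not given in the sources used here, so the P values measure the spread between these libraries, which may be technical in part.

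Cells sense misfolded protein in the ER through 3 membrane proteins, IRE1α (Ern1), ATF6 and PERK (Eif2ak3). IRE1α splices the mRNA of Xbp1, ATF6 is cut to release a transcription factor, and PERK phosphorylates the translation factor eIF2α, as GCN2 (Eif2ak4) does when amino acids run short. Phosphorylated eIF2α lowers protein synthesis in general but raises translation of ATF4, which turns on genes of amino acid synthesis and, with CHOP (Ddit3), of prolonged stress. XBP1 and ATF6 turn on chaperones, disulfide isomerases and the machinery that removes misfolded protein from the ER. Gene counts hold only the mRNA level, so Xbp1 splicing, eIF2α phosphorylation and ATF4 translation were not measured.

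Total counts ran from 18644807 in outside graft 1 to 25882122 in inside graft 1, and the 32 genes took between 0.755% and 0.928% of them. Levels are given as CPM, the counts scaled to a common library size with TMM factors, in the order inside graft 1, 2 and 3, then outside graft 1, 2, 3 and 4. A total of 15257 genes passed the filter on low counts, among them 31 of the 32 genes, and the exception was Trib3. Of the 32 genes, 8 share exon bases with another gene (Eif2ak3, Hsp90b1, Dnajb9, Manf, Pdia3, Pdia4, Pdia6 and Syvn1). Reads in the overlap may be missing from their counts. The 8 microglia markers, among them Cx3cr1, P2ry12 and Tmem119, summed to 38835 to 44672 CPM inside the graft and 43613 to 49699 CPM outside it. Markers of other cells differed between libraries: the 6 neutrophil markers summed to 467 to 9688 CPM inside and 0.311 to 202 CPM outside, and the 8 monocyte markers to 82.5 to 1372 CPM inside and 6.94 to 33.1 CPM outside. S100a8, S100a9 and Camp made up most of the neutrophil sum. Of the other neutrophil markers, Ly6g averaged 9.25 CPM inside and 0.181 CPM outside, Retnlg 1.33 and 0.977 CPM, and Mmp8 0.222 and 1.70 CPM. The 8 markers of border-associated macrophages summed to 35.2 to 156 CPM inside and 10.8 to 35.8 CPM outside, and the 6 proliferation genes to 77.1 to 114 CPM inside and 6.08 to 34.6 CPM outside. In a bulk sample, fewer cells of a type and less RNA per cell cannot be told apart.

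No stress response gene differed between microglia inside and outside the graft at an adjusted P below 0.05 by the quasi-likelihood test of edgeR, adjusted by Benjamini-Hochberg over all 15257 genes. That threshold was passed by 15 genes in all, 0.0983% of those tested, and this number ran from 0 to 73 when 1 library was left out. At an unadjusted P below 0.05, 3 of the 31 genes passed, against 9.55% of all genes tested, so the share of 9.68% was near the background. These were Asns and Psat1, higher inside the graft, and Phgdh, lower inside it, all of them amino acid synthesis genes of the ATF4 group. Limma's voomWithQualityWeights, which the study used, called 0 of the 31 genes at an adjusted P below 0.05 (0.492% of all genes) and 4 at an unadjusted P below 0.05, namely Chac1, Psat1, Phgdh and Sdf2l1 (12.2% of all genes). DESeq2 called Asns and Psat1 at an adjusted P below 0.05, where it called 2.76% of all genes, with adjusted P values of 0.0415 and 0.0398.

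**Figure D1:**
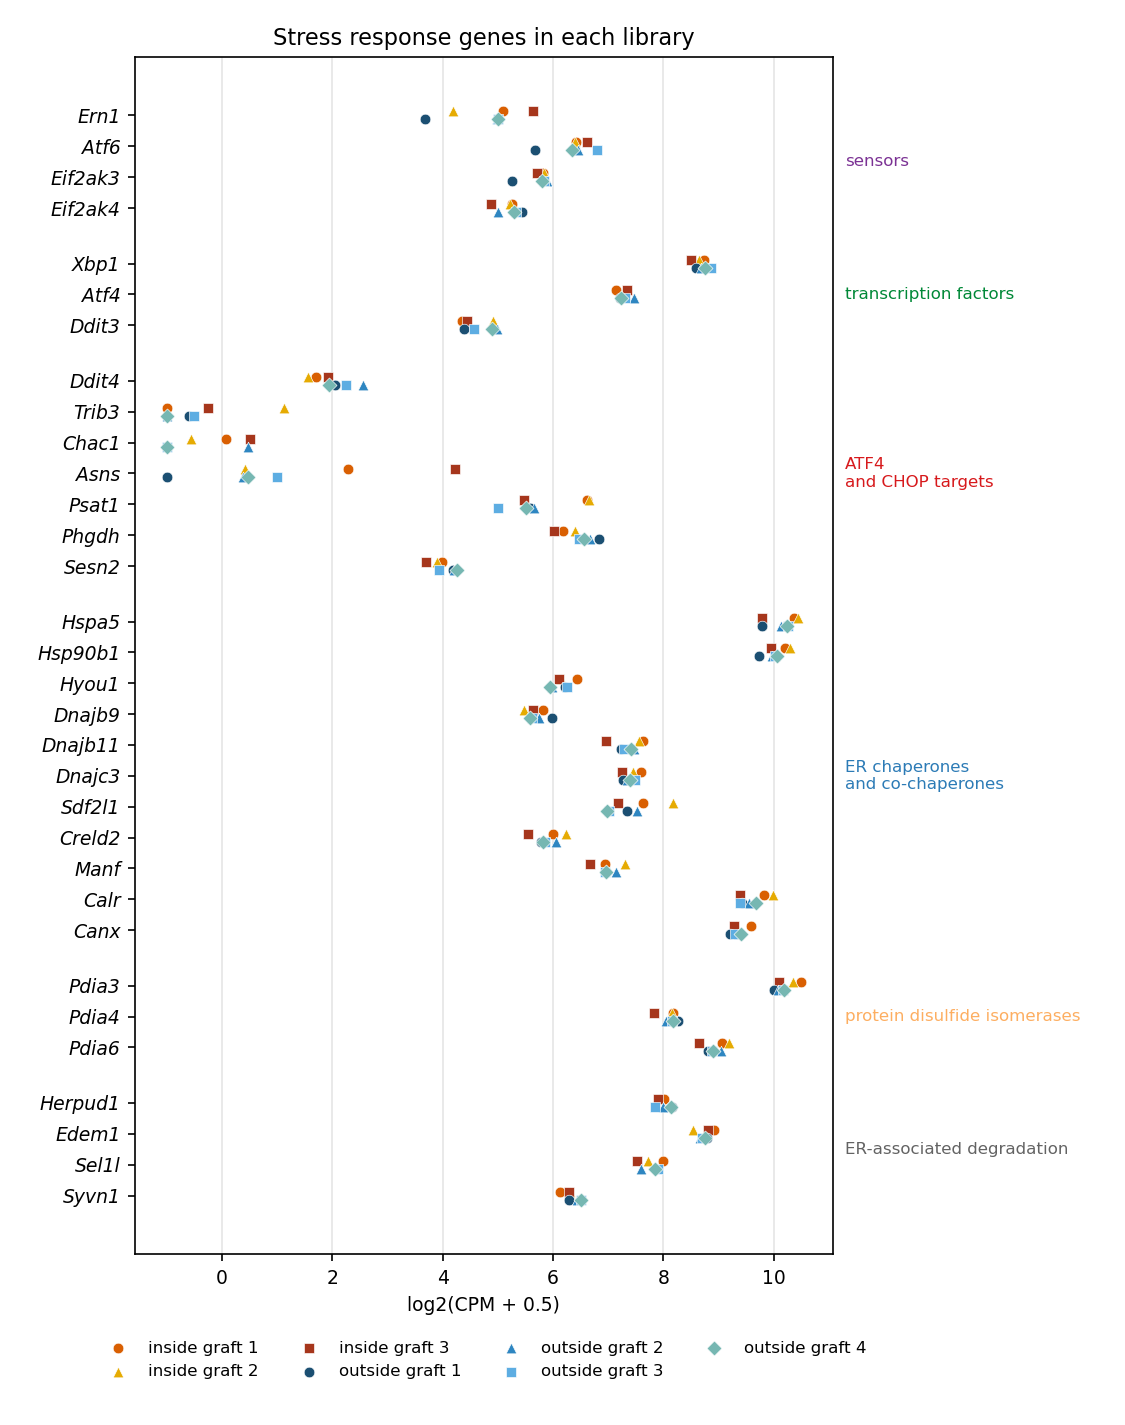
Level of each of the 32 genes in each of the 7 libraries, as log2(CPM + 0.5) on the horizontal axis, with genes grouped by role; warm colours are the inside-graft libraries and blue colours the outside-graft libraries, drawn just above and just below each gene's line. The groups overlap for all genes but Ddit4 and Phgdh, and Asns spreads most between the inside-graft libraries, from 0.84 to 18.2 CPM.

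Over the 31 genes, log2 fold changes of inside over outside had a median of 0.063, against -0.0064 over all genes tested. Of the 31 genes, 18 had a log2 fold change above 0, against 49.2% of all genes. The groups did not overlap for 2 of the 31 genes, Ddit4 and Phgdh, both lower in every inside-graft library, against 10.7% of all genes in either direction. Every inside-graft library was lower for 5.02% of all genes and higher for 5.65%, and the 31 genes included none of the latter. The size of difference that these libraries could leave unseen was limited for most of the genes. For 26 of the 31 the 95% interval of the log2 fold change lay within 2-fold in both directions, compared with 55.1% of all genes, and for 21 it lay within 1.5-fold, compared with 29% of all genes. Most of the genes were abundant, and among genes with a mean of at least 10 CPM the share within 2-fold was 26 of 28, close to the 88.7% of all such genes. The 5 genes whose interval reached past 2-fold were Ern1, Ddit4, Chac1, Asns and Psat1.

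**Figure D2:**
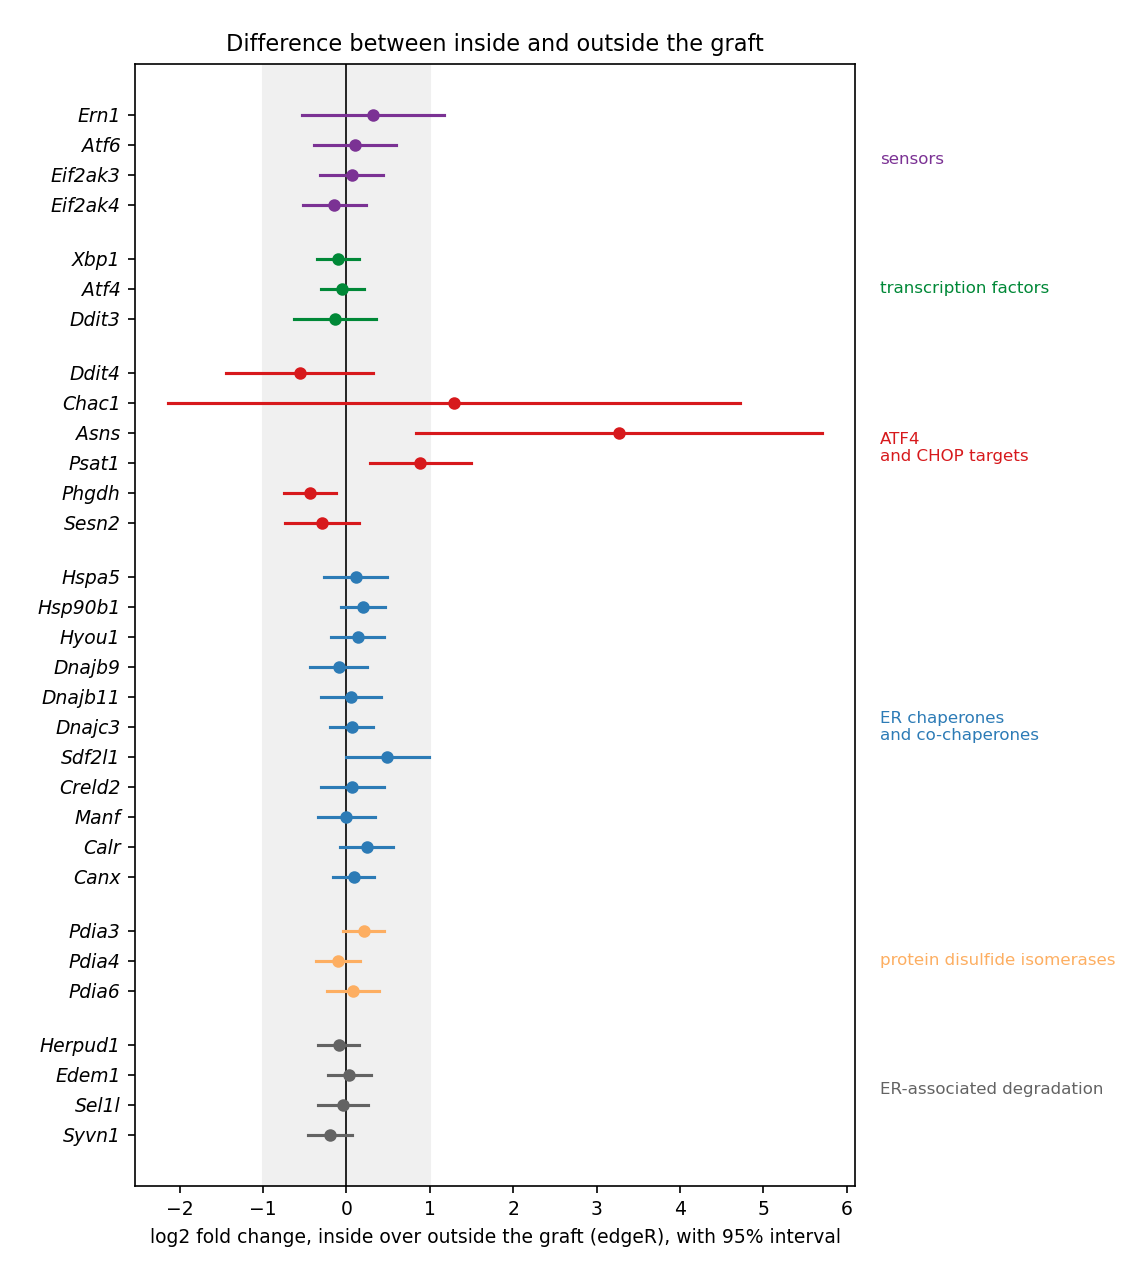
Log2 fold change (inside over outside) of the 31 tested genes from edgeR, with the 95% interval as a bar and the range within 2-fold shaded. The intervals of Asns, Psat1 and Phgdh leave out 0 before adjustment for the number of genes tested, and those of Asns and Chac1 are the widest drawn.

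The mRNAs of the stress sensors were present at moderate levels, and none of the 4 passed the test. Ern1, which encodes the kinase and RNase IRE1α, stood at 33.6, 17.7 and 49.1 CPM inside the graft and 12.3, 31.4, 31.5 and 31.8 CPM outside it. Its lowest value was in outside graft 1, while the other outside-graft libraries lay close together and the inside-graft libraries spread around them. The groups overlapped, with a log2 fold change of 0.32 (SE 0.38, edgeR adjusted P = 0.873). Without inside graft 3, the library with the highest value, the log2 fold change was -0.064. Atf6, which encodes the membrane-bound transcription factor, stood at 84.7, 83.8 and 97.2 CPM inside the graft and 50.6, 86.9, 111 and 81.3 CPM outside it. All inside-graft values lay between the lowest and the highest outside-graft library, with a log2 fold change of 0.10 (SE 0.22, edgeR adjusted P = 0.941). Eif2ak3 (PERK) stood at 55.97, 56.5 and 51.7 CPM inside the graft and 37.9, 58.7, 57.01 and 55.5 CPM outside it. Outside graft 1 was again the lowest, and the groups overlapped, with a log2 fold change of 0.066 (SE 0.17, edgeR adjusted P = 0.956). Counting ignored strand, so reads in the exon bases shared with Gm43292 on the opposite strand may be missing from the Eif2ak3 counts. Eif2ak4 (GCN2), the sensor of uncharged tRNA, stood at 38.00, 36.9 and 28.9 CPM inside the graft and 42.8, 31.6, 39.8 and 38.96 CPM outside it. It showed a log2 fold change of -0.15 (SE 0.17, edgeR adjusted P = 0.8699), and only inside graft 3 lay below all outside-graft libraries. Outside graft 1 was the lowest outside-graft library for 3 of the 4 sensors, against 34.2% of all genes tested. It was also the lowest for all 3 transcription factors, 8 of the 14 chaperones and disulfide isomerases and 16 of the 31 genes in all. It had the smallest total count and, at 0.448, the smallest weight in voomWithQualityWeights. In that test, which weighs it least, the log2 fold changes of Atf6 and Eif2ak3 were -0.013 and -0.00090.

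The 3 transcription factor genes had log2 fold changes just below 0, and all 3 overlapped between the groups. Xbp1, whose spliced mRNA encodes the active factor, stood at 428, 401 and 361 CPM inside the graft and 385, 409, 468 and 435 CPM outside it. It showed a log2 fold change of -0.10 (SE 0.11, edgeR adjusted P = 0.871), with a 95% interval from -0.35 to 0.15, and the counts cover spliced and unspliced mRNA together. Atf4, the shared effector of PERK and GCN2, stood at 140.4, 157 and 162 CPM inside the graft and 148, 177, 159 and 149 CPM outside it. Its 7 values differed little and it showed a log2 fold change of -0.047 (SE 0.11, edgeR adjusted P = 0.95), with a 95% interval from -0.30 to 0.21. Ddit3, which encodes CHOP, a factor that is scarce in unstressed cells, stood at 20.02, 29.8 and 21.3 CPM inside the graft and 20.5, 31.2, 23.3 and 29.4 CPM outside it. High and low values occurred in both groups, with a log2 fold change of -0.14 (SE 0.22, edgeR adjusted P = 0.915). Levels per exon length of the gene are given as TPM (counts per gene length, scaled to the same sum in each library). The mean level was 359 TPM inside and 414 TPM outside for Xbp1. It was 191 and 212 TPM for Atf4, and 40.4 and 48.1 TPM for Ddit3. Xbp1 mRNA was thus the most abundant of the 3 and Ddit3 mRNA the least abundant on the TPM scale in both groups.

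Among the 7 ATF4 and CHOP targets the genes of amino acid synthesis had the smallest P values, with log2 fold changes in both directions and none past the adjusted threshold. Psat1, which encodes phosphoserine aminotransferase, the second enzyme of serine synthesis, stood at 97.98, 99.99 and 43.9 CPM inside the graft and 47.7, 49.7, 31.7 and 45.3 CPM outside it. Inside graft 1 and 2 lay above all other libraries, and inside graft 3 lay within the outside-graft range. Psat1 averaged 80.6 ± 31.8 CPM (SD, n = 3) inside and 43.6 ± 8.14 CPM (SD, n = 4) outside, with a log2 fold change of 0.89 (SE 0.27, unadjusted P = 0.00852, edgeR adjusted P = 0.268). Phgdh, which encodes the dehydrogenase of the first step of the same pathway, stood at 72.4, 83.9 and 64.03 CPM inside the graft and 113, 101, 88.3 and 94.6 CPM outside it. All 3 inside-graft values lay below all 4 outside-graft values. Phgdh averaged 73.4 ± 9.99 CPM (SD, n = 3) inside and 99.3 ± 10.6 CPM (SD, n = 4) outside, with a log2 fold change of -0.43 (SE 0.14, unadjusted P = 0.0109, edgeR adjusted P = 0.297). Psph, the gene of the last enzyme of the pathway and not among the 32, stood at 15.3, 13.1 and 16.1 CPM inside the graft and 18.2, 19.2, 14.8 and 16.00 CPM outside it and showed a log2 fold change of -0.20 (SE 0.20, edgeR adjusted P = 0.839). Leaving out 1 library at a time, the log2 fold change ran from 0.70 to 1.18 for Psat1 and from -0.54 to -0.35 for Phgdh, with lowest adjusted P values of 0.126 and 0.239.

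Because neighbouring steps of 1 pathway had log2 fold changes of opposite sign, the CPM of Psat1 was divided by that of Phgdh in each library, a comparison chosen after the values were seen and given with no test. The ratio was 1.35, 1.19 and 0.686 inside the graft and 0.421, 0.492, 0.359 and 0.479 outside it. All 3 inside-graft ratios were above all 4 outside-graft ratios. The pair was picked for its opposite signs and Phgdh alone already separated the groups, so this adds no further support. How often other pairs of genes separate in this way was not examined. A ratio within a library does not depend on its scaling, but it does not say which of the pair moved.

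Asns encodes asparagine synthetase, whose promoter is the textbook site of ATF4 action. Its RefSeq promoter on GRCm38.p6 (chr6:7693160-7693459, minus strand, 250 bases before to 50 bases after the start) is shown because Asns had the smallest P value in edgeR of the genes that hold the element marked in it. The capitals mark TGATGNAA, the C/EBP-ATF response element (CARE) that ATF4 binds with a C/EBP factor, searched on both strands.

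Asns: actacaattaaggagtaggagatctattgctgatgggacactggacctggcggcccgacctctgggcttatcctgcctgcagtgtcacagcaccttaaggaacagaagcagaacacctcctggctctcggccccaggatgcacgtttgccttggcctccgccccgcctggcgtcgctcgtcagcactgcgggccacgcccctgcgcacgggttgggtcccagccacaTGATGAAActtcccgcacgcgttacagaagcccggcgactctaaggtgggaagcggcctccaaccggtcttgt

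This element was found in the promoters of 4 of the 29 stress response genes with a promoter in the table, Asns, Chac1, Herpud1 and Trib3, and in those of 4.51% of 27025 genes. Asns stood at 4.396, 0.843 and 18.2 CPM inside the graft and 0, 0.801, 1.49 and 0.891 CPM outside it, from 112, 19 and 431 counts inside and 0, 18, 37 and 22 counts outside. Inside graft 3 was far above the rest, inside graft 1 lay above all outside-graft libraries, and inside graft 2 lay within their range. The log2 fold change was 3.27 (SE 1.10, unadjusted P = 0.0135, edgeR adjusted P = 0.3203), and without inside graft 3 it was 1.70. The order of the inside-graft libraries for Asns was that of the summed neutrophil markers, which stood at 4466, 467 and 9688 CPM in inside graft 1, 2 and 3. S100a8, S100a9 and Camp made up most of the neutrophil sum, and Mmp8 (0, 0.666 and 0 CPM) had another order. The Asns order was also that of the summed monocyte markers, at 665, 82.5 and 1372 CPM. Chil3 made up most of that sum, at 587, 67.6 and 1189 CPM. Fn1 (5.81, 4.66 and 0.211 CPM) and Vcan (0.785, 0 and 0.674 CPM) had another order. Of the 12 marker lists, those of border-associated macrophages, proliferation, T and NK cells, neurons, and endothelial cells and pericytes also had the order of Asns. The remaining lists did not, and the part of other cells in the Asns values was not tested.

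Chac1 and Trib3, the other genes of the ATF4 and CHOP group with a CARE, were close to the limit of detection. Herpud1, grouped with ER-associated degradation, was not, at means of 246 CPM inside and 263 CPM outside. Chac1, which encodes an enzyme that degrades glutathione, had 14, 4 and 22 counts inside and 0, 20, 0 and 0 counts outside, with a log2 fold change of 1.29 (SE 1.54, edgeR adjusted P = 0.874). At these counts the estimate for Chac1 depended on the method. The log2 fold change was 3.45 with voomWithQualityWeights (unadjusted P = 0.0316, adjusted P = 0.3502), larger than the 2.27 of Asns in that test, and ran from 0.70 without inside graft 3 to 1.71 without inside graft 2 in edgeR. Trib3, a pseudokinase gene induced by CHOP, had 0, 38 and 8 counts inside and 3, 0, 5 and 0 outside and was not tested. Of these low genes, Chac1 had counts in all 3 inside-graft and 1 of 4 outside-graft libraries, and Trib3 in 2 of 3 and 2 of 4. Ddit4, an inhibitor of mTOR signalling that also responds to glucocorticoids and hypoxia, was lower in every inside-graft library, at 2.75, 2.44 and 3.29 CPM inside the graft and 3.63, 5.43, 4.26 and 3.36 CPM outside it, with a log2 fold change of -0.56 (SE 0.40, edgeR adjusted P = 0.742). Sesn2, another stress-induced inhibitor of mTOR signalling, averaged 14.1 ± 1.46 CPM (SD, n = 3) inside and 17.3 ± 1.71 CPM (SD, n = 4) outside, with a log2 fold change of -0.29 (SE 0.20, edgeR adjusted P = 0.725). The median log2 fold change of the 6 tested targets was 0.30, with 3 genes above and 3 below 0. With a minimum of 10 counts in every library, which left out Asns and Chac1, it was -0.35, and with no filter, which brought in Trib3, it was 0.89.

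**Figure D3:**
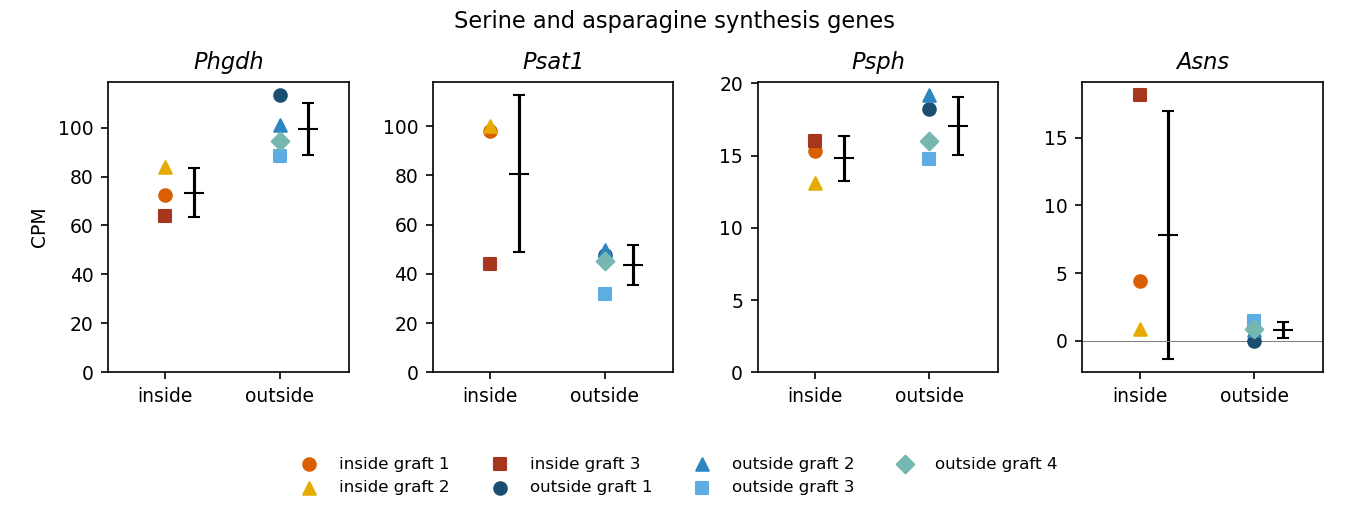
Level in CPM of 3 serine synthesis genes and Asns in each library, with the mean and SD beside the points (n = 3 inside, n = 4 outside) and a separate vertical axis for each gene. Phgdh is lower in all inside-graft libraries, Psat1 is higher in inside graft 1 and 2 but not in 3, Psph overlaps, and the Asns mean is carried by inside graft 3 at 18.2 CPM.

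The chaperones and disulfide isomerases made up most of the signal, and 17 of the 32 genes had a mean of at least 100 TPM outside the graft, most of them in these groups. Per exon length of the gene, Pdia3 mRNA was the most abundant, at a mean of 1200.1 TPM inside and 1119.6 TPM outside. Hspa5 (831 and 833 TPM), Calr (880.4 and 804 TPM) and Hsp90b1 (830.0 and 779.7 TPM) followed. In CPM, Hspa5 and Pdia3 were level outside the graft, at means of 1110.8 and 1110.7, so their order there depends on the lengths used. Many such genes carry the ER stress response element (ERSE), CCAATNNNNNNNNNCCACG, to which ATF6 binds with the factor NF-Y. The element was searched on both strands and was found in the promoters of 8 of the 29 stress response genes with a promoter in the table (Hspa5, Hsp90b1, Calr, Canx, Creld2, Dnajc3, Pdia6 and Syvn1) and in those of 0.137% of 27025 genes. The unfolded protein response element TGACGTGG was in none of the 29 and in 0.714% of the 27025 genes. The RefSeq promoters of Hsp90b1 (chr10:86705395-86705694, minus strand) and Calr (chr8:84846882-84847181, minus strand) on GRCm38.p6 are shown because these had the smallest P values of the genes with a full ERSE. Capitals mark each ERSE, of which Hsp90b1 holds one on each strand and Calr one in reverse.

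Hsp90b1: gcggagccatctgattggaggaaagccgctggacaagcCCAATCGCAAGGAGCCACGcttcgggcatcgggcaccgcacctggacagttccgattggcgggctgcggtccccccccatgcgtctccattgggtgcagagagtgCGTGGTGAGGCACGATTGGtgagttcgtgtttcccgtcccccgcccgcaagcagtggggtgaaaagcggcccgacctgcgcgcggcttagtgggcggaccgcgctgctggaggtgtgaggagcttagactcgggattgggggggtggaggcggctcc

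Calr: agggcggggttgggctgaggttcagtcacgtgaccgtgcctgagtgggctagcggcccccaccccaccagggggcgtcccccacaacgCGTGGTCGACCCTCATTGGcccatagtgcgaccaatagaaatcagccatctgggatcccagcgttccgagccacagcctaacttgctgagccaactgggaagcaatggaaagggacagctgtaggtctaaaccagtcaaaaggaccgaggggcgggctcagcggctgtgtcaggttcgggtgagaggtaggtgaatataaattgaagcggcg

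The 8 genes with an ERSE had log2 fold changes from -0.19 to 0.24 with a median of 0.084. Of them, 7 were above 0, against 49.2% of all genes. The sign of Hspa5, Canx, Creld2, Dnajc3 and Pdia6 changed in at least 1 fit with 1 library left out. Hspa5, which encodes BiP, the master chaperone of the ER and the usual readout of the unfolded protein response, stood at 1322, 1393 and 885 CPM inside the graft and 882, 1124, 1221 and 1218 CPM outside it. Inside graft 1 and 2 were the highest of the 7 libraries, while inside graft 3 was level with outside graft 1, the lowest. Hspa5 averaged 1200.0 ± 275 CPM (SD, n = 3) inside and 1111 ± 159 CPM (SD, n = 4) outside, with a log2 fold change of 0.11 (SE 0.17, edgeR adjusted P = 0.909) and a 95% interval from -0.27 to 0.49. Hsp90b1, which encodes GRP94, the HSP90 of the ER, stood at 1178, 1257 and 989 CPM inside the graft and 855, 1009.5, 1042 and 1065 CPM outside it. Inside graft 3 again lay within the outside-graft range, with a log2 fold change of 0.20 (SE 0.12, edgeR adjusted P = 0.661). Hsp90b1 shares exon bases with 3 other genes, 1 of them on the opposite strand, so reads in the shared bases may be missing from its counts. Calr, the lectin chaperone calreticulin, stood at 909.8, 1017 and 673 CPM inside the graft and 692, 753, 668 and 819.5 CPM outside it. The order was the same, with inside graft 3 below the other inside-graft libraries, and Calr showed a log2 fold change of 0.24 (SE 0.14, edgeR adjusted P = 0.6696).

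Sdf2l1, a regulator of the BiP cycle and a sensitive target of ATF6 and XBP1, stood at 198, 291 and 145 CPM inside the graft and 163, 183, 128 and 126 CPM outside it. Inside graft 2 was far above the rest and inside graft 3 lay within the outside-graft range. It had the largest log2 fold change of the 14 folding genes, 0.49 (SE 0.22, unadjusted P = 0.0513, edgeR adjusted P = 0.529). Pdia3, the disulfide isomerase that works with calnexin and calreticulin, stood at 1442, 1304 and 1097 CPM inside the graft and 1032, 1084, 1159 and 1168 CPM outside it. Again inside graft 1 and 2 lay above, and inside graft 3 within, the outside-graft values, with a log2 fold change of 0.21 (SE 0.11, edgeR adjusted P = 0.6205). Pdia4 and Pdia6, which encode other isomerases, had log2 fold changes of -0.10 and 0.080. The other 7 chaperone genes had log2 fold changes between -0.092 and 0.13. These were Hyou1, which helps BiP to exchange nucleotide, the J-domain partners of BiP Dnajb9, Dnajb11 and Dnajc3, the secreted or ER-resident factors Creld2 and Manf, and Canx (calnexin). Manf, at -0.0017, was closest to 0.

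The median over the 11 chaperone genes was a log2 fold change of 0.087 and that over the 3 isomerase genes 0.080, and 0 of the 14 passed an unadjusted P of 0.05. The inside-graft libraries were unlike each other in these genes. Inside graft 3 was the lowest inside-graft library for 10 of the 11 chaperone genes and all 3 isomerase genes, against 35.2% of all genes tested. In summed TPM the 14 genes stood at 6711, 6324 and 5037 inside the graft and 5139, 5727, 6087 and 6175 outside it. The median deviation of the 14 genes from the outside-graft mean, on the log2 scale, was 0.26, 0.26 and -0.12 in inside graft 1, 2 and 3 and between -0.099 and 0.031 in the outside-graft libraries. Without inside graft 3, the median log2 fold change was 0.23 for both groups of genes. Of the 31 genes, 5 then had an unadjusted P below 0.05, Psat1, Hsp90b1, Sdf2l1, Calr and Pdia3, all higher inside, against 7.72% of all genes tested, and none of the 31 had an adjusted P below 0.05. For all 5, inside graft 3 was the lowest inside-graft library. Leaving it out therefore raised their inside-graft means by construction, and this count adds no further support. Inside graft 3 had the highest summed neutrophil, monocyte, border-associated macrophage, T and NK cell and proliferation markers of the 7 libraries. Inside graft 1 and 2, both with a median deviation of 0.26, differed in these sums. The neutrophil sums were 4466 and 467 CPM, the monocyte sums 665 and 82.5 CPM and the border-associated macrophage sums 132 and 35.2 CPM. The proliferation sums were 105 and 77.1 CPM, and the T and NK cell sums 2.36 and 1.02 CPM. The part of other or dividing cells in the lower values of inside graft 3 was not tested.

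**Figure D4:**
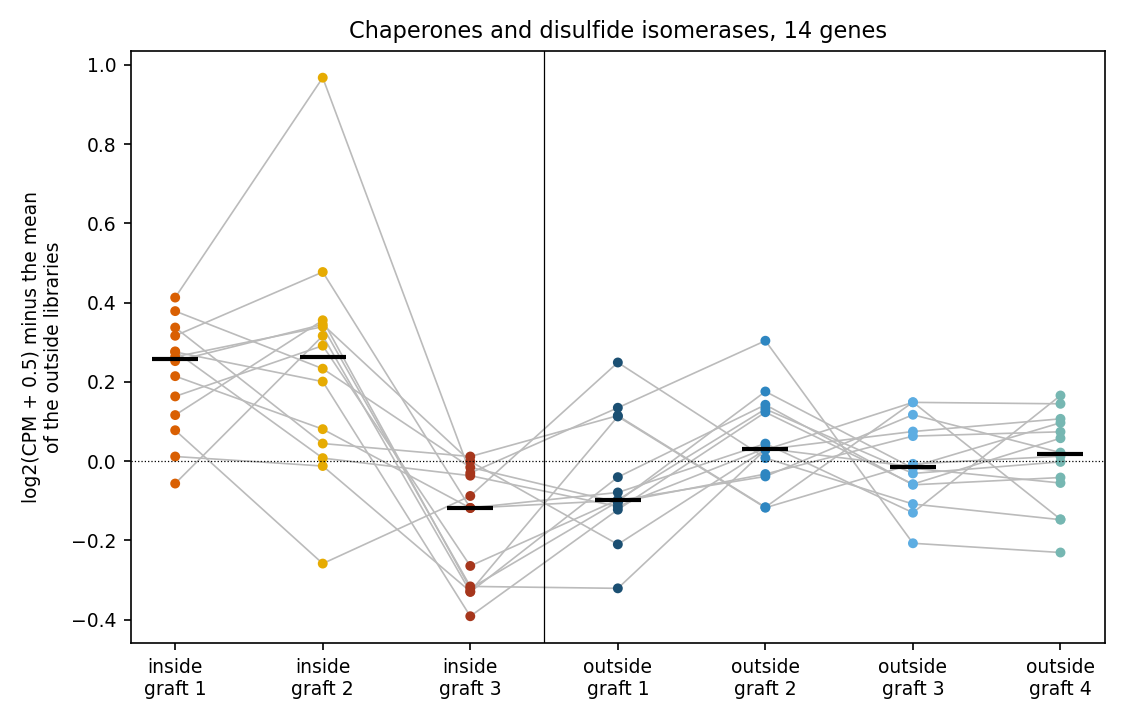
The 14 chaperone and disulfide isomerase genes in each library, as log2(CPM + 0.5) minus the mean of the 4 outside-graft libraries; each grey line is a gene and each black bar the median of the 14 genes. The medians of inside graft 1 and 2 lie at 0.26 and that of inside graft 3 at -0.12, while those of the outside-graft libraries lie between -0.099 and 0.031.

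The 4 genes of ER-associated degradation had log2 fold changes from -0.19 to 0.037. Syvn1, which encodes the ubiquitin ligase HRD1, stood at 69.8, 78.9 and 78.1 CPM inside the graft and 77.6, 86.5, 91.05 and 90.5 CPM outside it. Inside graft 1 was the lowest of the 7 libraries and the groups overlapped, with a log2 fold change of -0.19 (SE 0.12, edgeR adjusted P = 0.687). Sel1l, the adaptor of HRD1, had a log2 fold change of -0.041, Herpud1, which recruits the complex, -0.091, and Edem1, which marks misfolded glycoproteins for removal, 0.037. The median of the 4 was -0.066.

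The wider pathway was followed through 76 further genes, of which 75 were tested and 0 had an adjusted P below 0.05. At an unadjusted P below 0.05, 4 were higher inside the graft, against 5.76% of all genes, and 1 was lower, against 3.79%. The former were Atf3, Slc1a5, Ero1l and Os9 and the latter was Mars. Of 11 regulators of the integrated stress response, Atf3, a transcription factor gene that ATF4 induces, stood at 50.4, 59.5 and 40.5 CPM inside the graft and 27.2, 32.2, 17.3 and 26.2 CPM outside it. All inside-graft values were above all outside-graft values, with a log2 fold change of 0.96 (SE 0.22, edgeR adjusted P = 0.126), and with DESeq2 the adjusted P was 0.00381. Atf3 also belongs to the immediate early genes that cell dissociation can induce. Of the 10 such genes listed, which leave out Atf3, 9 were tested and 0 had an adjusted P below 0.05 in edgeR. Ier2 was higher in every inside-graft library, at 22.0, 21.6 and 24.9 CPM inside the graft and 8.004, 20.02, 13.2 and 14.3 CPM outside it, with a log2 fold change of 0.72 (SE 0.28, unadjusted P = 0.0283, edgeR adjusted P = 0.427). Fos, Dusp1 and Egr1 had log2 fold changes of 1.81, 0.77 and 0.64 with overlapping groups, and Jun, Junb, Nr4a1, Btg2 and Zfp36 had log2 fold changes from -0.51 to -0.061. The 10 genes summed to 650 to 793 CPM inside the graft and 683 to 848 CPM outside it, and the part of dissociation in the Atf3 values was not tested. Eif2ak2, the kinase PKR that senses double-stranded RNA, had a log2 fold change of 0.45 (edgeR adjusted P = 0.549).

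Of 23 further amino acid and tRNA synthetase targets of ATF4, 9 of the 22 tested were above 0 and the median log2 fold change was -0.075. Mars, the gene of methionyl-tRNA synthetase, stood at 99.7, 98.7 and 98.7 CPM inside the graft and 117, 118, 129 and 159 CPM outside it and was lower in every inside-graft library, with a log2 fold change of -0.40 (SE 0.13, edgeR adjusted P = 0.311). Slc1a5, a glutamine transporter gene, stood at 10.1, 20.9 and 9.73 CPM inside the graft and 9.18, 6.85, 6.84 and 7.69 CPM outside it, with the groups apart in the other direction and a log2 fold change of 0.83 (SE 0.32, edgeR adjusted P = 0.4196).

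Of the 11 genes of ER folding and oxidation, Ero1l, the oxidase that recharges disulfide isomerases and a gene also induced by hypoxia, stood at 41.1, 17.3 and 34.2 CPM inside the graft and 11.1, 8.32, 18.3 and 19.5 CPM outside it. Only inside graft 2 fell within the outside-graft range, with a log2 fold change of 1.11 (SE 0.36, edgeR adjusted P = 0.298). Hspa13, an HSP70 of microsomes, had a log2 fold change of 0.51 (edgeR adjusted P = 0.564). Of the 14 further genes of ER-associated degradation, Os9, a lectin that hands glycoproteins to HRD1, was higher in every inside-graft library, at 353, 377 and 345 CPM inside the graft and 261, 316, 303 and 326 CPM outside it, with a log2 fold change of 0.25 (SE 0.11, edgeR adjusted P = 0.515). Edem3 had a log2 fold change of -0.63 (edgeR adjusted P = 0.533) with overlapping groups. Of the 17 genes of translocation and the secretory pathway, Ssr2 and Ssr4, subunits of the translocon-associated protein complex, had the smallest P values, with log2 fold changes of -0.28 and 0.31 and adjusted P values of 0.596 and 0.611 in edgeR. Groups that did not overlap were found for 5 of the 75 genes, Atf3, Slc1a5, Mars, Os9 and Uggt1, against 10.7% of all genes tested. Uggt1, the sensor of glycoprotein folding, was named after its values were seen and stood at 186, 187 and 191 CPM inside the graft and 178, 162, 180.1 and 185 CPM outside it.

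**Figure D5:**
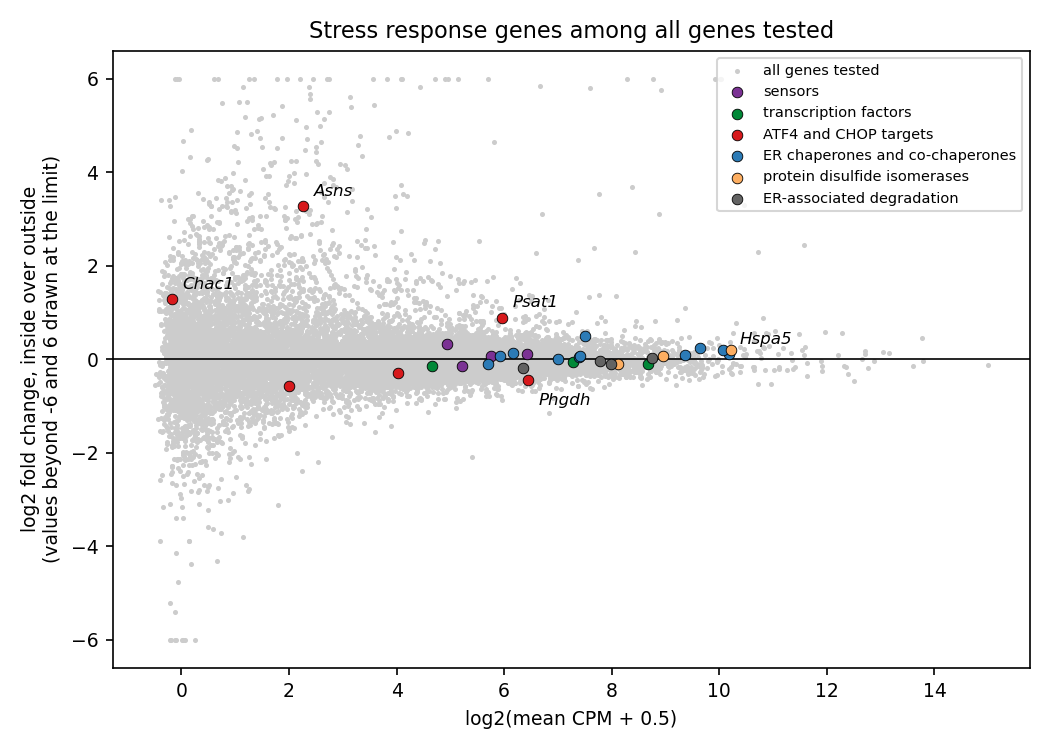
Log2 fold change (inside over outside) against the mean level as log2(mean CPM + 0.5) for all 15257 genes tested (grey) and the 31 stress response genes (coloured by role). Most of the 31 lie in the abundant, narrow part of the plot near 0, and Asns and Chac1 lie in the low part where all genes spread widely.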

How the data were processed

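Microglia were sorted as CD11b+CD45low cells, and cDNA was amplified from total RNA, made into Nextera XT libraries and sequenced as single reads. The authors deposited raw read counts per gene name, 1 column per library without normalization, made per the labels and the submitters' processing notes with bcl2fastq 2.18, STAR 2.7.2a and featureCounts 1.6.2 on GENCODE M21 (GRCm38.p6). Strand was ignored, multi-mapping reads were not counted and each counted read was given to 1 gene. The reads carry no molecular identifiers, so the amplified copies of 1 molecule were counted separately.

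From these counts, genes were filtered with filterByExpr, scaled by TMM and compared with edgeR 4.0.16 (glmQLFit, glmQLFTest, Benjamini-Hochberg adjustment, threshold 0.05) in R 4.3.3. Standard errors follow from the F statistic, and all tests were two-sided. TPM used the gene lengths in the table. Deviations used log2(CPM + 0.5). Groups came from the labels. The 9 pairs of libraries of 1 group differed by more than counting noise (lowest chi-square per degree of freedom 17.8).

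The 32 genes and all lists were chosen with earlier results of these data known. Values in every library are given for the sensors, the transcription factors, Hspa5 and the 8 other genes with the smallest P, and 2 genes are named from each wider list. Psph was added after its list was seen. Promoters came from RefSeq for 29 of the 32 genes and were searched with Python 3.11.15. Alternatives were limma 3.58.1 voomWithQualityWeights, DESeq2 1.42.0, other scalings, filters and thresholds, robust dispersion, a replicate block and each library left out. The scripts were tested on simulated data.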

Additional observations from a re-analysis of the deposited data

Results flagged for a closer look

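In the 4 outside-graft libraries, 1 library stood far from the other 3 for 4 of the 32 genes. Chance would flag about 1 in 20 such groups, or 1.6 of 32, if the genes were independent, but they share libraries. Ern1 was at 12.3 CPM in outside graft 1, below 31.4 to 31.8 CPM in the others, and Eif2ak3 was at 37.9 CPM in outside graft 1, below 55.5 to 58.7 CPM in the others. Chac1 was at 0.890 CPM in outside graft 2 and at 0 in the others, so its flag rests on libraries without counts. Manf was at 141 CPM in outside graft 2, above 122 to 124 CPM in the others. The inside-graft group of 3 libraries was too small for this comparison.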

How the results depend on the processing

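No stress response gene passed an adjusted P of 0.05 with edgeR under the other scalings (RLE, upper-quartile, library size alone), robust dispersion or any library left out. Asns and Psat1 passed with DESeq2 (2 genes) and Psat1 with no filter on low counts (1 gene, adjusted P = 0.0347). At an unadjusted P of 0.05 the number ran from 3 to 5 over the libraries left out, with 5 without inside graft 3. Over all genes, 15 passed the adjusted threshold, against 75 with voomWithQualityWeights, 420 with DESeq2, 366 with no filter, 92 with at least 10 counts in every library, and 0 at an adjusted P of 0.01, where edgeR still gave 1457 genes at an unadjusted P below 0.05. With 1 library left out the number ran from 0 to 73, where 0 were left on omitting inside graft 3 or outside graft 4, 4 on omitting outside graft 2 and 73 on omitting inside graft 2. The wider lists held 5 genes at an unadjusted P below 0.05, against 8 with voomWithQualityWeights, 9 with DESeq2, 8 with at least 10 counts, and 3 to 6 with 1 library left out, with 3 without outside graft 3. The cause of these shifts was not tested. With the replicate number as a block and without outside graft 4, which has no partner, edgeR called 43 genes and 0 of the stress response genes, and the log2 fold change of Chac1 was 2.93. The same-numbered libraries did not deviate together (correlations of -0.033, 0.075 and 0.062), so the numbers were not taken to pair the libraries.

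The median of the ATF4 and CHOP targets, 0.30, was 0.89 with no filter and -0.35 with at least 10 counts, as different genes entered, and ran from -0.27 without outside graft 2, where Chac1 dropped out, to 0.31. With 1 library left out, the medians ran from -0.010 to 0.10 for all the genes, -0.065 to 0.20 for sensors, -0.14 to -0.027 for transcription factors, 0.028 to 0.23 for chaperones, -0.037 to 0.23 for isomerases and -0.13 to -0.032 for degradation genes. Of 493 log2 fold changes under alternatives, 22 changed sign, in 13 genes, with main values of at most 0.32 in size. These were Atf6 (-0.013) and Eif2ak3 (-0.00090) with voomWithQualityWeights, and Manf with DESeq2 (0.013), RLE (0.013) and at least 10 counts (0.0078). The others came with 1 library left out, where the log2 fold change ran from -0.064 to 0.63 for Ern1, -0.070 to 0.28 for Atf6, -0.059 to 0.13 for Eif2ak3, -0.092 to 0.015 for Atf4, -0.010 to 0.29 for Hspa5, -0.067 to 0.23 for Dnajb11, -0.016 to 0.15 for Dnajc3, -0.091 to 0.24 for Creld2, -0.19 to 0.14 for Manf, -0.014 to 0.15 for Canx, -0.037 to 0.23 for Pdia6, -0.040 to 0.14 for Edem1 and -0.17 to 0.063 for Sel1l. Trib3, Chac1 and Asns had fewer than 50 counts in at least 1 library, so their values there rest on few or no reads.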
